A study of Mus musculus with 12 samples.

Results

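Atf4, Ddit3, Trib3, Chac1, Asns, Phgdh, Psat1, Shmt2, Mthfd2 and Slc7a11 were followed as the ATF4 and amino acid stress genes of mouse embryonic fibroblasts (MEFs) that had lost RTF2, a replisome component. They were chosen by symbol, and all 10 were found among the 24100 genes of the deposited count table. All 10 passed the filter on low counts, which left 14263 genes for testing. RNA was sequenced from WT (Rtf2+/+) and RTF2-deficient (Rtf2-/lox) littermate MEFs, and every group, WT included, had received Cre by retrovirus 72 hrs before collection. The cells were immortalized with SV40 large T antigen per the study's methods. There were 2 MEF lines from different mothers, with 3 libraries per line and genotype and 12 libraries in all. The study describes the 3 libraries of a group as technical replicates, so p-values measure the spread between libraries and not between animals. WT and RTF2-deficient cells of a line came from different embryos, and differences of genotype and of embryo within a line cannot be told apart.

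ATF4 is the transcription factor of the integrated stress response. Kinases that sense amino acid shortage, unfolded protein, heme loss or double-stranded RNA phosphorylate eIF2 alpha, which lowers general translation while the Atf4 mRNA is translated more, so the Atf4 transcript level is not a measure of ATF4 protein. ATF4 then binds composite elements near genes for amino acid synthesis, amino acid import, mitochondrial one-carbon metabolism and stress regulation. In fibroblasts this program is best known from amino acid withdrawal and endoplasmic reticulum (ER) stress.

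Promoter sequences are shown because several members were high in the same libraries, as described further on. RefSeq's promoter table for GRCm38.p6 held 11 windows of 300 bases for the 10 members, each spanning 250 bases before to 50 after an annotated start. They were searched on both strands for TGATGNAA, the core of the composite element that ATF4 binds with C/EBP partners, and no other motif was searched. A match was found in 4 of the 11 member windows and in 1304 of all 32851 windows, or 3.97%. The members were chosen by symbol as ATF4 genes, so these shares are a description and not a test. The 4 windows with a match are shown 5′ to 3′ on the strand of the gene, with each match in capitals.
Slc7a11: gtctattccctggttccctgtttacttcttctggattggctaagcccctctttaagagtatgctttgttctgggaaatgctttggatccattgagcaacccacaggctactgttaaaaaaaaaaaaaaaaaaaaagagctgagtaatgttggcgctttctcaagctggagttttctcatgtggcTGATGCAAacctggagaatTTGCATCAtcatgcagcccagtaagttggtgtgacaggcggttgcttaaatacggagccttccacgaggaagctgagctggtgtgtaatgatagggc
Chac1: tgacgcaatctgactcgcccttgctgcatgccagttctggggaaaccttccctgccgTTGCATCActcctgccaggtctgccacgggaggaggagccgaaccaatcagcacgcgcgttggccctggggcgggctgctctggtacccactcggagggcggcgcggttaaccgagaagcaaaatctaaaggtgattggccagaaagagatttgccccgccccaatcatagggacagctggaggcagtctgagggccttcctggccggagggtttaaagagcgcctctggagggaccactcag
Trib3: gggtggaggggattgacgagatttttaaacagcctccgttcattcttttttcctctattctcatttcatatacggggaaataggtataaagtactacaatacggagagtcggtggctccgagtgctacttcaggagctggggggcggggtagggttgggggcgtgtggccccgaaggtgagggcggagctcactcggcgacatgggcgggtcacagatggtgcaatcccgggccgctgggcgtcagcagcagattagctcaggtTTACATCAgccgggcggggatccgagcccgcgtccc
Asns: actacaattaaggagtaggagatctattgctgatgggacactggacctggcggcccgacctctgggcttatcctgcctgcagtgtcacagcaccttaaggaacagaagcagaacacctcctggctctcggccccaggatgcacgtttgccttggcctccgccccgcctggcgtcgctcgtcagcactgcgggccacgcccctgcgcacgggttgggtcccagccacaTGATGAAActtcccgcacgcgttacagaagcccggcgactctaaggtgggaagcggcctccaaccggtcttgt
The Slc7a11 window (chr3:50443564-50443863, minus strand) held 2 matches, one on each strand, with first bases at -66 and -47, counted from the start site as 0. It lies inside the full annotated span of the gene (chr3:50364936-50499087), which has other start sites further upstream. Only 23 of all windows, or 0.07%, held 2 or more matches. The match in Chac1 (chr2:119350992-119351291, plus strand) began at -193, that in Asns (chr6:7693160-7693459, minus strand) at -23, and that in Trib3 (chr2:152344011-152344310, minus strand) at 14, inside the transcribed part. The other 6 members, Ddit3 among them, had no match in the windows searched, which says only that these letters were not there. A match is a description of the letters and not a measured site. Any part of the element in the spread between libraries was not tested.

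Library totals lay between 39360167 and 44695002 counts, and the lowest count of any member in any library was 331, for Chac1. Rtf2 checked the labels, with 45.6 ± 1.35 CPM (SD, n = 3; counts scaled to 1000000 per library after TMM normalization) in WT line 1 against 5.79 ± 0.443 in RTF2-deficient line 1, and 53.9 ± 3.52 against 6.49 ± 0.168 in line 2. The Y-linked gene Ddx3y was at 91.8 to 107 CPM in the libraries of WT line 2 and at or below 0.195 elsewhere, while Xist was at or below 0.132 in WT line 2 and at or above 103 elsewhere. WT line 2 therefore stood apart in sex-linked genes, and values within line 1, which did not differ in this way, are given beside those over both lines for the members and the pathway genes called. All 8 fibroblast markers passed the filter, with summed levels of 19142 to 31711 CPM. Between genotypes over both lines edgeR called 0 of these 8, with 1 at an unadjusted p under 0.05 and 1 by DESeq2. That gene was Pdgfra (3.49 to 21.7 CPM), at 0.499-fold of WT (DESeq2 adjusted p = 0.0143). In line 1 both methods called 0. In line 2 edgeR called 0 and DESeq2 called 2, Pdgfra at 0.366-fold and Pdgfrb at 1.43-fold. Between the WT lines edgeR called 3, all lower in line 2, against 14.0% of all genes. The endothelial, leukocyte, epithelial, neural and muscle marker lists each summed to at most 21.5 CPM in any library, and Ckm, a muscle marker, had 0 counts in all. Of these 20 markers 10 passed the filter, and between genotypes over both lines edgeR called 2, against 13.2% of all genes. At an unadjusted p under 0.05 there were 4, against 28.5%, and DESeq2 called 2, against 18.7%. Those called by edgeR were Kdr (endothelial) at a log2 fold change of 0.58 (adjusted p = 0.049) and Sox2 (neural) at -0.85 (adjusted p = 0.0499). The other tested markers of their lists, Tek and Elavl4, were at -0.03 and 0.27. In line 1 edgeR called 0, against 3.20%, with 1 at an unadjusted p under 0.05 and 0 by DESeq2. In line 2 edgeR called 2, against 12.5%. At an unadjusted p under 0.05 there were 4, against 27.8%, and DESeq2 called 3, against 18.4%. Those called by edgeR were Cd68 (leukocyte) at -1.07 and Sox2 at -1.51. The other tested markers of their lists, Csf1r and Elavl4, were at 0.76 and 0.48. Kdr lay between 6.71 and 15.2 CPM, Sox2 between 1.68 and 10.9 and Cd68 between 1.44 and 8.95. The part of these markers in the differences between genotypes was not tested. In bulk RNA, fewer cells of a kind and less RNA per cell cannot be told apart.

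Members differed widely in level. Per kilobase of transcript, Phgdh (166 CPM per kb), Atf4 (154) and Psat1 (143) were highest as means over the 12 libraries. Their ranges over libraries overlapped, so the order of these 3 is not resolved. Shmt2 (86.2), Asns (81.4) and Mthfd2 (56.0) followed, also with overlapping ranges. Ddit3 (26.7), Trib3 (11.4), Chac1 (11.1) and Slc7a11 (2.31) were lowest, below every library of the other 6 genes apart from 1 Ddit3 library, library 1 of WT line 2. Atf4 itself and the synthesis and one-carbon enzymes were the abundant transcripts of the set, and the stress-induced regulators were at low levels.

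Loss of RTF2 was compared with WT over both lines to ask whether the amino acid stress genes differed between genotypes. Shmt2, an enzyme of mitochondrial one-carbon metabolism, fell to 0.801-fold of WT, and none of the other 9 members passed the test. By edgeR (quasi-likelihood F test, Benjamini-Hochberg adjusted over all genes tested), 1 of 10 members was called at an adjusted p under 0.05, against 13.2% of all genes tested. With a log2 fold change beyond 1 required as well, 0 members were called by edgeR, against 1.72% of all genes. At an unadjusted p under 0.05 there was 1 member, against 28.5% of all genes, and DESeq2 also called 1, against 18.7% of the genes to which it gave an adjusted p, the base of every DESeq2 share given here. The log2 fold changes of the members ran from -0.34 to 0.20, with 5 positive, 5 negative and a median of -0.06, beside a median of 0.00 over all genes tested.

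Overlap of the libraries was counted within each line. In line 1 the genotypes overlapped for all 10 members, so 0 were separate, against 21.1% of all genes tested. In line 2 they were separate for 3 of 10 members, Atf4, Shmt2 and Mthfd2, against 29.5% of all genes, a share near that background.

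**Figure D1:**
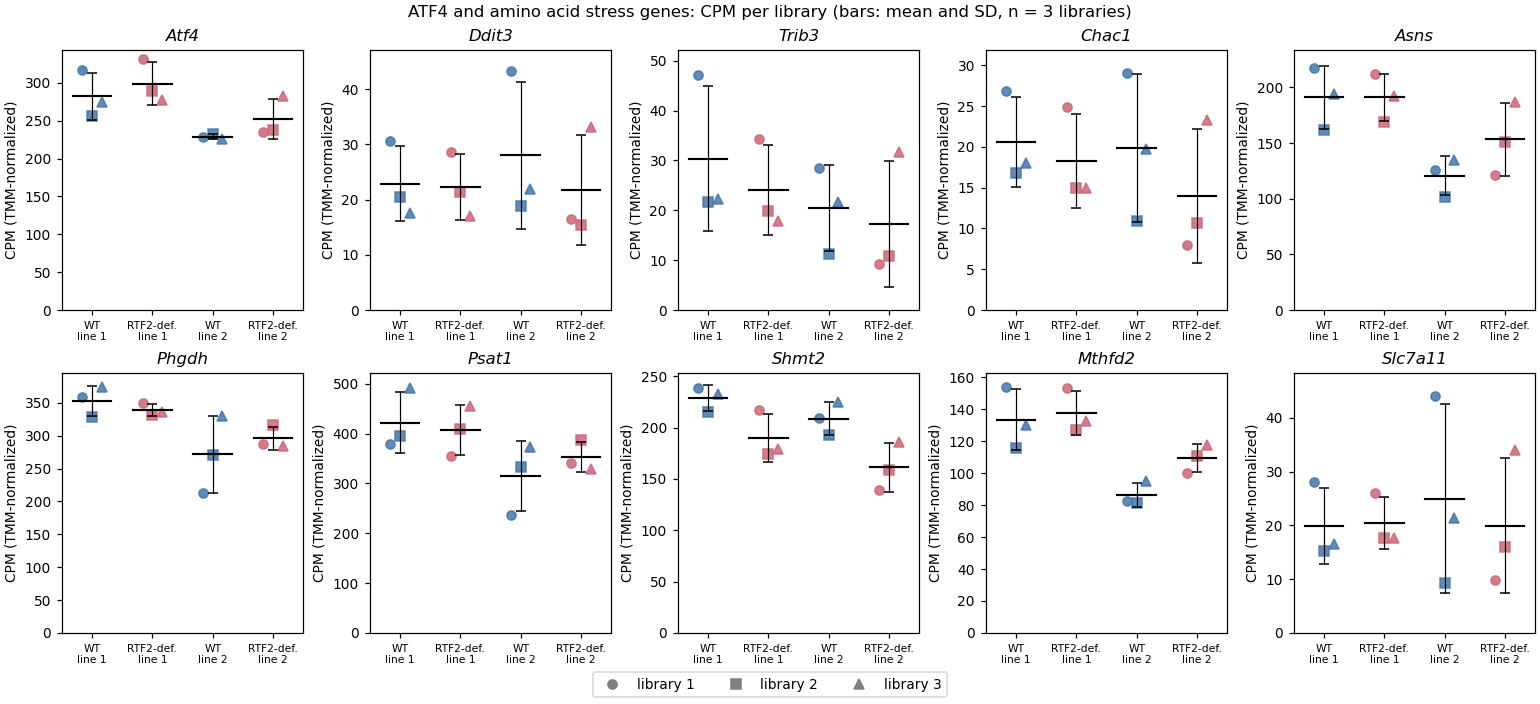
Each panel plots 1 gene, with the TMM-normalized CPM of each library on the y axis (linear, from 0) against genotype and line on the x axis; blue is WT, red is RTF2-deficient, marker shapes are library numbers, and black bars are the mean and SD of 3 libraries. WT and RTF2-deficient libraries overlap in every panel for line 1, and in line 2 Atf4, Shmt2 and Mthfd2 are separate, 3 of 10 members beside 29.5% of all genes tested.

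Among the transcription factors, Atf4 (chr15:80255184-80257545) did not differ detectably. In WT line 1 its libraries gave 316, 256 and 274 CPM, and in RTF2-deficient line 1 they gave 331, 290 and 277 CPM. In line 2 the WT libraries gave 228, 232 and 226 CPM and the RTF2-deficient libraries 236, 238 and 283 CPM. The genotypes overlapped in line 1, while in line 2 each RTF2-deficient library was above each WT library, the nearest pair being 232 and 236 CPM. The log2 fold change over both lines was 0.11 ± 0.07 (SE; 95% confidence interval -0.04 to 0.26; adjusted p = 0.322), and 0.08 in line 1 (adjusted p = 0.818). Ddit3 (chr10:127290793-127296291) encodes CHOP, a factor induced late in prolonged stress. Its libraries gave 30.6, 20.6 and 17.5 CPM in WT line 1, 28.7, 21.3 and 17.0 in RTF2-deficient line 1, 43.3, 18.8 and 22.0 in WT line 2, and 16.5, 15.4 and 33.2 in RTF2-deficient line 2. Library 1 was highest in every group but RTF2-deficient line 2, where library 3 was, and the genotypes overlapped in both lines. Its log2 fold change was -0.20 with an interval of -0.77 to 0.37 (adjusted p = 0.648), and -0.04 in line 1 (adjusted p = 0.983). Ddit3 shares 68 exon bases, or 7.64% of its exons, with Mars on the opposite strand, and whether the counting used strand is not given in the sources used here.

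The stress-induced regulators Trib3 and Chac1 did not differ detectably either. Trib3 (chr2:152337425-152344060) encodes a pseudokinase that restrains ATF4 and AKT signaling. Its libraries gave 47.1, 21.6 and 22.3 CPM in WT line 1, 34.3, 19.8 and 17.9 in RTF2-deficient line 1, 28.5, 11.3 and 21.7 in WT line 2, and 9.26, 10.8 and 31.7 in RTF2-deficient line 2. The highest library of every group was above the lowest library of every other group, so no group was separate. Its log2 fold change was -0.29 (95% confidence interval -1.05 to 0.47, adjusted p = 0.617), and -0.34 in line 1 (adjusted p = 0.863). Over the alternatives described under processing, the value over both lines ran from -0.62 to -0.07. Chac1 (chr2:119351242-119354326) encodes an enzyme that degrades glutathione. Its libraries gave 26.9, 16.8 and 18.0 CPM in WT line 1, 24.9, 14.9 and 15.0 in RTF2-deficient line 1, 29.1, 10.9 and 19.7 in WT line 2, and 7.96, 10.6 and 23.3 in RTF2-deficient line 2. The genotypes overlapped in each line. Its log2 fold change of -0.34 was the most negative of the 10 members, but its interval of -0.98 to 0.30 was wide (adjusted p = 0.476), and in line 1 the value was -0.17 (adjusted p = 0.925). Over the alternative fits described under processing, the value of Chac1 over both lines ran from -0.56 to -0.15.

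None of the 3 enzymes of amino acid synthesis passed the test between genotypes. Asns (chr6:7675165-7693209) makes asparagine from aspartate. Its libraries gave 218, 161 and 194 CPM in WT line 1, 212, 169 and 192 in RTF2-deficient line 1, 126, 102 and 135 in WT line 2, and 122, 151 and 187 in RTF2-deficient line 2. The line 1 groups covered nearly the same range, and in line 2 the RTF2-deficient group reached higher but still overlapped WT. Asns differed by 0.17 on the log2 scale (95% confidence interval -0.10 to 0.44; adjusted p = 0.391), and by -0.00057 in line 1 (adjusted p = 0.9999). Phgdh (chr3:98313171-98339969) and Psat1 (chr19:15905123-15925059) carry out successive early steps of serine synthesis. Phgdh ranged from 213 to 373 CPM over the WT libraries and from 285 to 350 CPM over the RTF2-deficient libraries. Psat1 ranged from 237 to 492 CPM in WT and from 330 to 456 CPM in RTF2-deficient libraries. The RTF2-deficient libraries lay inside the WT range for both genes. Their log2 fold changes were 0.03 (-0.17 to 0.23) and 0.06 (-0.20 to 0.31), with adjusted p of 0.848 and 0.787, and in line 1 they were -0.06 and -0.05, with adjusted p of 0.912 and 0.942.

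Shmt2 and Mthfd2, the mitochondrial one-carbon enzymes, had fold changes of opposite sign. Shmt2 (chr10:127517123-127522444) converts serine to glycine and loads the carbon onto folate. It gave 239, 215 and 233 CPM in WT line 1 and 217, 174 and 179 in RTF2-deficient line 1. In line 2 it gave 209, 192 and 225 CPM in WT and 139, 158 and 186 in RTF2-deficient libraries. RTF2-deficient libraries were lower in both lines, with 1 of them inside the WT range in line 1 and none in line 2. Over both lines Shmt2 was at 0.801-fold of WT, a log2 fold change of -0.32 ± 0.08 (SE; 95% confidence interval -0.50 to -0.14; adjusted p = 0.0234). The value was -0.27 in line 1 (adjusted p = 0.336) and -0.37 in line 2 (adjusted p = 0.0628), so neither line passed alone by edgeR. DESeq2 called it in line 2 and, with the replicate block, in line 1, as given with the single lines. The call was lost without library 3 of WT line 2, library 2 of RTF2-deficient line 1 or library 2 of RTF2-deficient line 2, with adjusted p of 0.0601, 0.0515 and 0.0570. Over all alternatives the adjusted p ran from 0.00421 by DESeq2 to 0.162 with triplicates summed, where 0 genes of the whole table were called. Shmt2 shares 32 exon bases, or 1.39%, with Ndufa4l2 on the opposite strand.

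Mthfd2 (chr6:83305704-83326011) oxidizes the folate-bound carbon that Shmt2 produces. It gave 154, 116 and 130 CPM in WT line 1, 153, 127 and 133 in RTF2-deficient line 1, 82.4, 81.2 and 94.9 in WT line 2, and 100, 111 and 118 in RTF2-deficient line 2. The genotypes overlapped in line 1 and were separate in line 2, with RTF2-deficient libraries higher. Over both lines it differed by 0.20 on the log2 scale (95% confidence interval -0.00045 to 0.39; adjusted p = 0.176), with 0.05 in line 1 (adjusted p = 0.924) and 0.35 in line 2 (adjusted p = 0.0783). Without library 1 of WT line 1 its adjusted p was 0.0412, within a range of 0.0412 to 0.358 over the alternatives.

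Slc7a11 (chr3:50364936-50499087) encodes the light chain of the cystine-glutamate exchanger. It gave 28.0, 15.3 and 16.5 CPM in WT line 1 and 26.1, 17.6 and 17.6 in RTF2-deficient line 1. In line 2 it gave 44.0, 9.35 and 21.4 CPM in WT and 9.84, 15.9 and 34.0 in RTF2-deficient libraries. The highest and the lowest library of all 12 were both in WT line 2. Between genotypes it differed by -0.14 on the log2 scale with an interval of -0.95 to 0.66 (adjusted p = 0.830), which spans both a fall and a rise, and in line 1 by 0.04 (adjusted p = 0.990).

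Within single lines no member was called by edgeR. In line 1 the count was 0 of 10, against 3.20% of all genes tested, with 1 member at an unadjusted p under 0.05 (Shmt2), against 13.9%, and 0 by DESeq2, against 5.72%. The 3 pairs of same-numbered libraries of line 1 deviated together from their group means, with correlations over genes of 0.62, 0.43 and 0.48. Within these pairs Atf4 was higher in the RTF2-deficient library in 3 of 3, and Shmt2, Trib3 and Chac1 were lower in 3 of 3. Such agreement of all 3 pairs held for 4 of 10 members and for 58.7% of all genes tested. With the number as a block for line 1, edgeR called 0 of 10 members, against 3.65% of all genes, with 1 at an unadjusted p under 0.05, against 16.2%. DESeq2 with that block on the line 1 libraries called 2 of 10, against 18.6% of the 12929 genes with an adjusted p. These were Shmt2 (log2 fold change -0.27; DESeq2 adjusted p = 2.9e-05) and Trib3 (-0.30; DESeq2 adjusted p = 0.014), both lower. This block was added after the data were seen, and over the alternatives in line 1 the adjusted p of Shmt2 reached 0.662 and that of Trib3 0.982, each when 1 library was left out. In line 2 it was 0 of 10, against 12.5% of all genes, with 2 members at an unadjusted p under 0.05, against 27.8%, and 2 called by DESeq2, against 18.4%, a share near that background. Those 2 were Shmt2 and Mthfd2, with DESeq2 adjusted p of 0.0306 and 0.0362. The difference between lines in the effect of genotype was tested directly as an interaction. By edgeR 0 of 10 members were called, against 1.29% of all genes, with 0 at an unadjusted p under 0.05, against 8.49%, and 0 by DESeq2, against 2.53%. The largest interaction estimates were -0.36 for Slc7a11 and 0.35 for Asns, with intervals of -2.03 to 1.31 and -0.18 to 0.87.

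**Figure D2:**
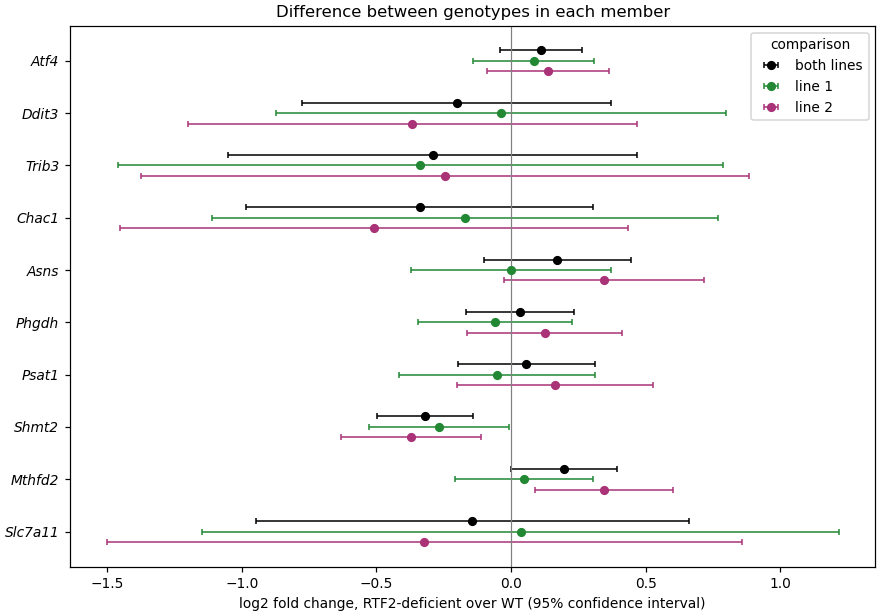
Log2 fold changes of RTF2-deficient over WT cells (x axis) for each member (y axis), with points for the estimate and bars for the 95% confidence interval, over both lines (black), in line 1 (green) and in line 2 (purple). Shmt2 is below 0 in all 3 comparisons, while the intervals of Ddit3, Trib3, Chac1 and Slc7a11 are the widest and include 0.

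The lines themselves were compared as a yardstick, using WT cells of both mothers. Asns and Mthfd2 were lower in WT line 2 than in WT line 1. By edgeR 2 of 10 members were called, against 14.0% of all genes, with 5 at an unadjusted p under 0.05, against 28.1%, and 4 called by DESeq2, against 17.1%. The log2 difference was -0.63 for Mthfd2 (95% confidence interval -0.89 to -0.37; adjusted p = 0.0046) and -0.66 for Asns (-1.04 to -0.29; adjusted p = 0.0248). The WT libraries of the lines did not overlap for either gene, with 116 to 154 CPM in line 1 and 81.2 to 94.9 in line 2 for Mthfd2, and 161 to 218 against 102 to 135 for Asns. The Asns call was lost without library 1 or 3 of WT line 1 or without library 2 of WT line 2, and its adjusted p over the alternatives ran from 0.00176 to 0.0705. Atf4 (-0.30; adjusted p = 0.0761), Phgdh (-0.38; 0.0789) and Psat1 (-0.42; 0.121) had differences of the same sign that did not pass by edgeR, and DESeq2 called Atf4 (DESeq2 adjusted p = 0.032) and Phgdh (0.035) but not Psat1 (0.066). Over the 10 members 8 were negative, with a median of -0.34, beside 0.02 over all genes.

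The RTF2-deficient lines were compared in the same way, and 0 of 10 members were called by edgeR, against 1.94% of all genes, with 2 at an unadjusted p under 0.05, against 13.4%, and 0 by DESeq2, against 4.72%. All 10 differences were negative, with a median of -0.24 beside 0.01 over all genes. Those of Slc7a11 and Ddit3 were both -0.04, with intervals of -1.22 to 1.15 and -0.87 to 0.80. Some members rose and fell together over the libraries, so the signs are not independent of each other. Asns and Mthfd2 had log2 differences of -0.32 (adjusted p = 0.471) and -0.33 (adjusted p = 0.224). The sign of line 2 against line 1 was thus shared by WT and RTF2-deficient cells for 8 of 10 members, Ddit3 and Slc7a11 being the exceptions. WT line 2 differed from WT line 1 in sex-linked genes too, and the RTF2-deficient lines did not. The part of that difference in the WT values was not tested.

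Libraries of the same group differed widely for Slc7a11, Trib3, Chac1 and Ddit3. The ratio of the highest to the lowest library in a group was 1.48 to 4.70 for Slc7a11, 1.92 to 3.43 for Trib3, 1.60 to 2.93 for Chac1 and 1.69 to 2.31 for Ddit3. The median of the ratio over the 4 groups was 2.65 for Slc7a11, 2.35 for Trib3, 2.16 for Chac1 and 1.95 for Ddit3. Among 7374 genes with a mean level in the range of the members (18.2 to 374 CPM), the median was 1.17 and the 90th percentile 1.41. Slc7a11, Trib3, Chac1 and Ddit3 were above 98.9%, 98.6%, 98.3% and 97.7% of those genes. These 4 members had mean levels of 18.2 to 23.7 CPM, at the low end of that range. The shares are therefore not against genes of matched level. The synthesis and one-carbon enzymes were steadier, with medians of 1.34 for Asns, 1.29 for Psat1, 1.21 for Shmt2, 1.19 for Mthfd2 and 1.12 for Phgdh, and Atf4 was at 1.20.

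**Figure D3:**
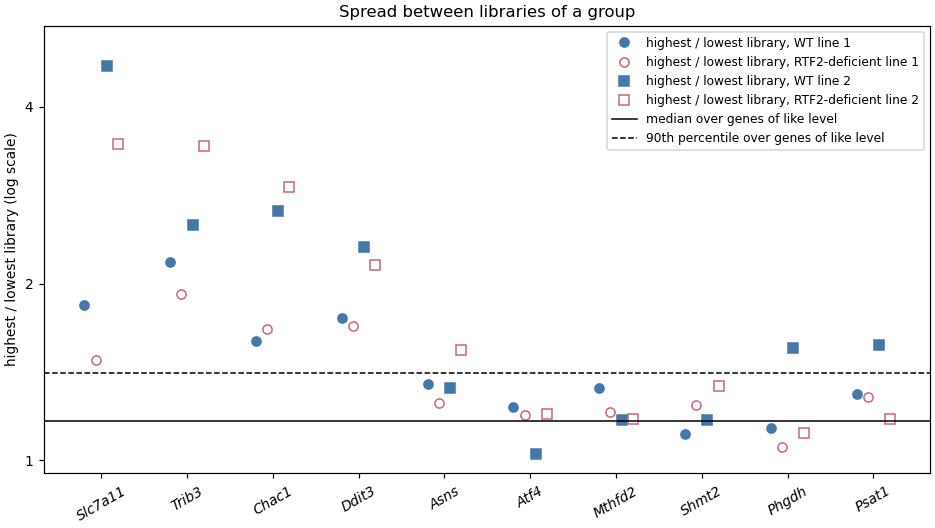
For each member (x axis), circles (line 1) and squares (line 2) are the ratio of the highest to the lowest library within a group, filled blue for WT and open red for RTF2-deficient (y axis, log scale). Lines mark the median (1.17, solid) and 90th percentile (1.41, dashed) of the median ratio over the 4 groups. They were taken among 7374 genes with a mean level of 18.2 to 374 CPM. All 4 ratios of Slc7a11, Trib3, Chac1 and Ddit3 lie above the dashed line.

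The spread was shared between some members. Ddit3, Trib3, Chac1 and Slc7a11 were highest in the same library of each group, namely library 1 of WT line 1, library 1 of RTF2-deficient line 1, library 1 of WT line 2 and library 3 of RTF2-deficient line 2. Chac1 was taken as the reference for this count after its values were seen. Atf4, Asns, Shmt2 and Mthfd2 had the same highest library as Chac1 in 3 of 4 groups, the exception being WT line 2, Phgdh in 1 group and Psat1 in 0. Chac1 itself included by construction, 9 members were highest in that library in RTF2-deficient line 1, 8 in WT line 1 and in RTF2-deficient line 2, and 4 in WT line 2. No share over all genes was taken for single groups, so these counts stand without a background. Over all genes tested, 2198, or 15.4%, were highest in these libraries in all 4 groups, 15.5% in 3 and 32.6% in none. The libraries thus also differed widely outside the members. They were not the deepest libraries as a rule, since only in RTF2-deficient line 1 and line 2 was the same library highest in total counts.

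Other genes moved with the same libraries. The interferon score, the median log2 CPM of 12 interferon-stimulated genes, was also highest in the library with the highest Chac1 in all 4 groups. It ranged from 0.94 to 3.97 in WT line 1, from 0.54 to 2.02 in RTF2-deficient line 1, from 5.10 to 8.91 in WT line 2 and from 2.17 to 7.31 in RTF2-deficient line 2. Of the 12 interferon genes, 10 were highest in these libraries in all 4 groups. Library 1 of WT line 2 held the highest score of any library, and it was also the highest of all 12 libraries for Ddit3 (43.3 CPM), Chac1 (29.1) and Slc7a11 (44.0). Trib3 was highest in library 1 of WT line 1, at 47.1 CPM. The part of the interferon-stimulated genes in the spread of the members was not tested.

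**Figure D4:**
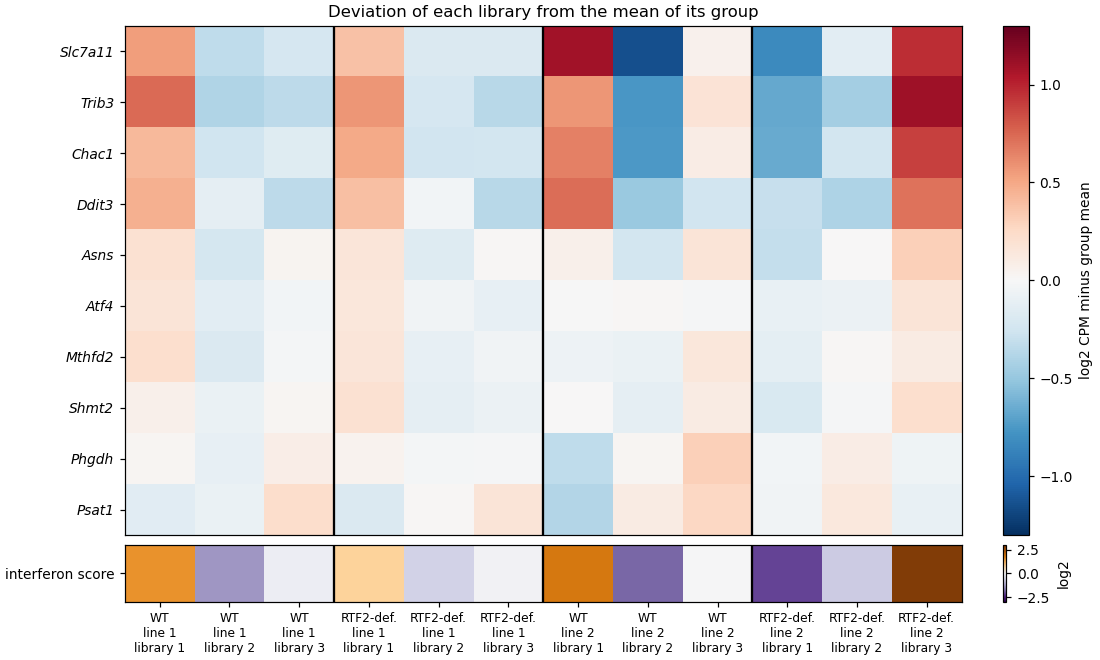
Colors give the log2 CPM of each library (x axis) minus the mean of its group for each member (upper panel, y axis), with red above and blue below the mean, and the same for the interferon score (lower panel, orange above and purple below). The highest library of Ddit3, Trib3, Chac1 and Slc7a11 is also that of the interferon score in each of the 4 groups, while that of Psat1 is another library in each, and in WT line 2 Trib3, Chac1 and Slc7a11 are also above the group mean in library 3, where the score is not.

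The genes whose levels were most like the mean of the members' z-scores over the 12 libraries were named by a fixed rule. They were Atf5 (Pearson r = 0.966, Spearman rho = 0.944), Aldh1l2 (0.953, 0.874), Trim35 (0.952, 0.832), Gpt2 (0.948, 0.811) and Psph (0.947, 0.937). ATF5 is a transcription factor related to ATF4, and Aldh1l2, Gpt2 and Psph encode enzymes of mitochondrial folate, alanine and serine metabolism. After the 2 libraries farthest from the median of the score were left out, r was 0.943, 0.913, 0.905, 0.893 and 0.916. These values describe 12 libraries that share lines, embryos and cultures, and carry no test. Between genotypes, Atf5 had a log2 fold change of -0.19 (adjusted p = 0.461).

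Other genes of the ATF4 pathway were taken from a list of 51 genes in 6 roles, all of which passed the filter. Slc1a5, an amino acid transporter, and Pycr1, a proline synthesis enzyme, had the largest log2 fold changes of the list, and both were lower in RTF2-deficient cells. By edgeR 5 of 51 genes were called between genotypes over both lines, 1 higher and 4 lower, against 13.2% of all genes tested, with 9 at an unadjusted p under 0.05, against 28.5%, and 8 called by DESeq2, against 18.7%. The median log2 fold change of the list was -0.01, beside 0.00 over all genes.

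Slc1a5 encodes ASCT2, a transporter of glutamine and other neutral amino acids. It gave 53.9, 46.4 and 49.8 CPM in WT line 1 and 16.8, 12.6 and 12.8 in RTF2-deficient line 1. In line 2 it gave 55.1, 46.2 and 59.8 CPM in WT and 11.4, 11.2 and 17.5 in RTF2-deficient libraries. Every RTF2-deficient library was below every WT library. Slc1a5 was at 0.264-fold of WT, a log2 fold change of -1.92 ± 0.13 (SE; 95% confidence interval -2.20 to -1.64; adjusted p = 5.0e-06), with -1.83 in line 1 (adjusted p = 8.6e-04) and -2.01 in line 2 (adjusted p = 1.3e-04). With the triplicates of a group summed, 0 genes of the whole table were called, so the loss of this call (adjusted p = 0.102) was not particular to Slc1a5. Its log2 fold change was -1.91 there, and over all alternatives it ran from -2.00 to -1.86.

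Pycr1 encodes the enzyme of the last step of mitochondrial proline synthesis. Its libraries gave 40.9, 27.5 and 30.1 CPM in WT line 1, 19.1, 11.2 and 13.1 in RTF2-deficient line 1, 22.2, 17.8 and 24.6 in WT line 2, and 6.30, 9.01 and 14.5 in RTF2-deficient line 2. The genotypes did not overlap in either line. Its log2 fold change was -1.15 ± 0.20 (SE; adjusted p = 0.0028), with -1.18 in line 1 (adjusted p = 0.056) and -1.11 in line 2 (adjusted p = 0.032). DESeq2 called Pycr1 in both lines, with adjusted p of 0.0020 in line 1 and 0.0019 in line 2. With triplicates summed, where 0 genes of the whole table were called, its edgeR call was lost too (adjusted p = 0.102) at -1.14. Over the alternatives its log2 fold change ran from -1.31 to -1.05. Aldh18a1, which makes the precursor of proline from glutamate, fell by 0.51 on the log2 scale (adjusted p = 0.031), with -0.50 in line 1 (adjusted p = 0.282). Mthfd1l, a mitochondrial folate enzyme, fell by 0.21 (adjusted p = 0.041), with -0.23 in line 1 (adjusted p = 0.277). Pycr1, Aldh18a1 and Mthfd1l were the 3 called among 9 listed enzymes, all lower, on a list chosen with results of these data known and beside 13.2% of all genes called. Without library 1 of WT line 1, library 1 or 3 of WT line 2, library 2 or 3 of RTF2-deficient line 1, or library 1 or 2 of RTF2-deficient line 2, the adjusted p of Aldh18a1 was 0.0579 to 0.0769. That of Mthfd1l was above 0.05 without any single library except library 1 of WT line 1 or library 1 of WT line 2, and reached 0.116. Of 8 transporters 1 was called, Slc1a5, a share near the same background, with 3 at an unadjusted p under 0.05 and 2 by DESeq2, and their log2 fold changes otherwise lay between -0.49 and 0.21.

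Upstream of ATF4, 1 of 7 genes was called, a share near the 13.2% of all genes. Eif2ak3, which encodes the ER kinase PERK, was higher by 0.31 on the log2 scale (adjusted p = 0.039), with 0.30 in line 1 (adjusted p = 0.323). It gave 45.5, 41.5 and 34.3 CPM in WT line 1, 56.8, 46.9 and 45.3 in RTF2-deficient line 1, 37.0, 37.4 and 34.5 in WT line 2, and 41.0, 42.3 and 52.0 in RTF2-deficient line 2. The genotypes overlapped in line 1, where the lowest RTF2-deficient library was just below the highest WT library, and not in line 2. The call was lost without library 2 or 3 of WT line 1, any library of WT line 2, library 1 of RTF2-deficient line 1, or library 2 or 3 of RTF2-deficient line 2, and the adjusted p ran from 0.00978 to 0.157 over the alternatives. The amino acid sensor Eif2ak4 (GCN2) had a log2 fold change of 0.11 (adjusted p = 0.27) and the heme-regulated kinase Eif2ak1 of 0.10 (adjusted p = 0.20). Eif2ak2 (PKR), itself induced by interferon, was at -0.49 with an interval of -1.25 to 0.27 (adjusted p = 0.38). The phosphatase subunits Ppp1r15a (GADD34) and Ppp1r15b were at 0.02 and 0.04, with adjusted p of 0.94 and 0.68.

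The remaining roles held no call by edgeR in the comparison over both lines. Aminoacyl-tRNA synthetases gave 0 of 12, with 0 at an unadjusted p under 0.05, 0 by DESeq2 and log2 fold changes between -0.09 and 0.13. Partner and downstream transcription factors gave 0 of 5, with 1 at an unadjusted p under 0.05 and 1 by DESeq2. Growth and stress outputs gave 0 of 10, also with 1 and 1. Within single lines, edgeR called 1 of 51 genes in line 1 (Slc1a5), against 3.20% of all genes, and 3 of 51 in line 2 (Slc1a5, Pycr1 and Stc2), against 12.5%. DESeq2 called 2 in line 1, against 5.72%, and 5 in line 2, against 18.4%. Stc2, a secreted glycoprotein, was named after its values were seen. It gave 10.7, 8.29 and 13.4 CPM in WT line 2 and 4.16, 6.29 and 5.85 in RTF2-deficient line 2, a log2 fold change of -0.99 (adjusted p = 0.024), beside -0.19 in line 1 (adjusted p = 0.830) and -0.60 over both lines (adjusted p = 0.079). Of the 51 genes, 24, or 47.1%, were highest in the library with the highest Chac1 in all 4 groups, beside 15.4% of all genes tested. The lists were chosen with results of these data known, and the shares describe these libraries only.

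**Figure D5:**
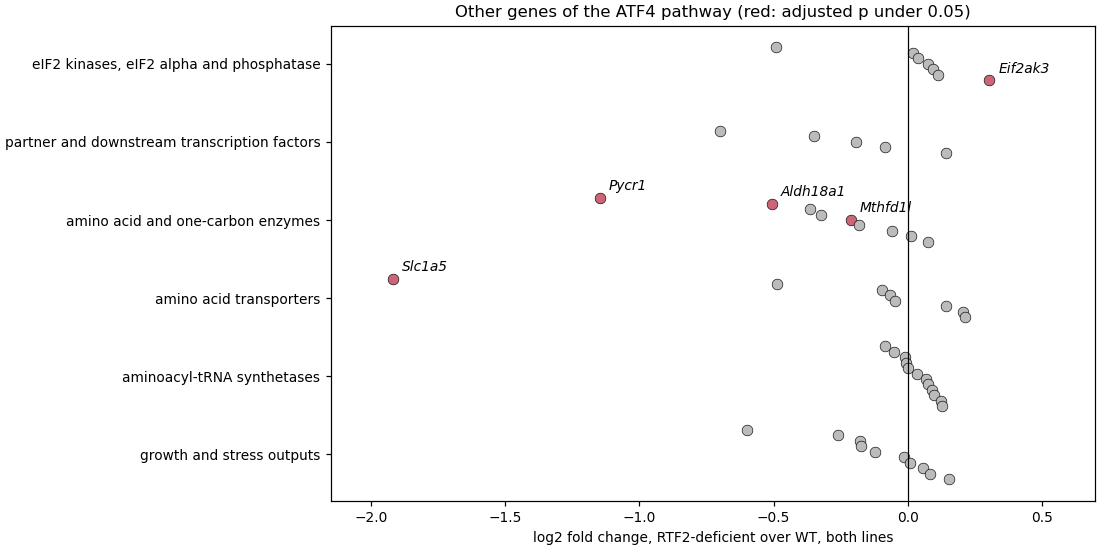
Each dot is 1 of 51 listed genes of the ATF4 pathway, placed by its log2 fold change of RTF2-deficient over WT cells over both lines (x axis) and its role (y axis, spread vertically for display), with red for an adjusted p under 0.05 by edgeR and grey for the rest. Slc1a5 at -1.92 and Pycr1 at -1.15 lie farthest from 0, and all 12 aminoacyl-tRNA synthetases lie between -0.09 and 0.13.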

How the data were processed

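For 12 RNA libraries of MEFs, 1 table of whole-number counts by Entrez Gene identifier was deposited by the authors, without normalization. For its making, Salmon, tximport and UCSC mm10 gene models are named in the methods, and HTSeq with mm10 in the processing notes of the submitters. Strand use in counting is not given in the sources used here. RefSeq (GRCm38.p6) gave symbols for 24045 of 24100 identifiers, gene positions and promoters, and GENCODE M21 gave transcript lengths and exon overlaps. Reads that fit both of 2 overlapping genes could be counted for either.

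Genes were filtered with filterByExpr on the 4 groups, normalized by TMM and tested with edgeR 4.0.16 (glmQLFit, glmQLFTest; limma 3.58.1, R 4.3.3) with terms for line and genotype. Line effects and the interaction were tested as contrasts among the 4 group means. The comparison of RTF2-deficient lines was added after the data were seen. P-values were Benjamini-Hochberg adjusted over all 14263 genes, and genes were called at an adjusted p under 0.05. The SE is the size of the unshrunken log2 fold change divided by the square root of F. CPM are TMM-normalized, and log2 CPM used a prior count of 2. Totals of 39360167 to 44695002 counts allow 3 counts, or 0.0762 CPM, as the limit for a count of 0 in the shallowest library, for counting error only. On simulated counts for the comparison of genotypes over both lines (14124 genes), 54% of genes changed by 0.5 log2 units and 87% of those changed by 1 were recovered, with 7 false calls.

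The genes named were all 10 members, Rtf2, the eIF2 kinases and phosphatase subunits, listed pathway genes called over both lines, at most 3 genes of each comparison list, and the 5 genes most like the members. The members and lists were chosen with earlier results of these data known. Replicate numbers of the titles were checked by the correlation over genes of same-numbered libraries' deviations from their group means. All 3 pairs were above 0.1 in line 1 (0.43 to 0.62, each RTF2-deficient library correlating best with its own number) and not in line 2, so a block for line 1 was added after the data were seen. Alternatives were RLE normalization, no filter, DESeq2 1.42.0, a replicate block, summed triplicates, an added fold threshold and leaving out each library.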

Additional observations from a re-analysis of the deposited data

How the results depend on the processing

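The members called between genotypes were 1 over both lines, and 0 with triplicates summed or with a log2 fold change beyond 1 as well. They ranged from 0 to 2 when 1 library was left out. Calls in line 2 were 0, 2 by DESeq2 and 0 to 1 when leaving out libraries, the 1 without library 1 of WT line 1 or library 3 of RTF2-deficient line 2. Calls between WT lines were 2, 4 by DESeq2 and 1 to 2 when leaving out libraries. Of the 51 pathway genes 5 were called, 8 by DESeq2, 0 with triplicates summed, 4 with a replicate block and 2 to 5 when leaving out libraries. With triplicates summed 0 genes of the whole table were called by edgeR, with 2737 at an unadjusted p under 0.05, and the cause was not tested. Slc1a5 and Pycr1 lost their calls there (adjusted p = 0.102 for both), at log2 fold changes of -1.91 and -1.14, and under no other alternative run. Eif2ak3, Mthfd1l and Aldh18a1 lost theirs in 10, 12 and 8 of 17 alternatives.

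Asns in line 1, at -0.00057, was 0.0046 with RLE, 0.0044 without a filter, 0.0036 by DESeq2, 0.0025 with the replicate block, 0.0041 with the block for line 1 only and 0.0039 by DESeq2 with a block on the line 1 libraries. Leaving out libraries turned the sign of members that were not called. Over both lines the ranges were -0.36 to 0.025 for Ddit3, -0.037 to 0.10 for Phgdh, -0.024 to 0.13 for Psat1 and -0.38 to 0.19 for Slc7a11. In line 1 they were -0.26 to 0.24 for Ddit3, -0.69 to 0.14 for Trib3, -0.46 to 0.079 for Chac1, -0.12 to 0.11 for Asns, -0.15 to 0.071 for Psat1, -0.052 to 0.17 for Mthfd2 and -0.18 to 0.37 for Slc7a11. In line 2 they were -0.79 to 0.097 for Ddit3, -1.01 to 0.075 for Trib3, -0.016 to 0.30 for Phgdh and -0.93 to 0.38 for Slc7a11.

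Across both lines the replicate numbers did not pair the libraries, since same-numbered correlations in line 2 ran from -0.59 to 0.17. In line 1 they did. In line 2, RTF2-deficient libraries 1, 2 and 3 correlated best with WT libraries 2, 3 and 1. No fit with that order was run, so the line 2 values do not take such a match into account. Calls in line 1 were 0, and 2 by DESeq2 with a replicate block on the line 1 libraries. With the replicate block, 1 member was called over both lines and Shmt2 kept its call (adjusted p = 0.0284). Wide intervals of the low members, at 331 to 2025 counts, came with chi-square values per degree of freedom of 20.5 to 180 between libraries of a group.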

Other observations

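Neighbouring programs were read from comparison lists in the same comparison of genotypes over both lines, beside the 13.2% of all genes called. Of 8 ER chaperone genes 2 were called, in opposite directions, Sdf2l1 at a log2 fold change of -0.31 (adjusted p = 0.019) and Pdia4 at 0.18 (adjusted p = 0.040). Of 7 cytosolic one-carbon genes 1 was called, Shmt1, the cytosolic counterpart of Shmt2, at -0.29 (adjusted p = 0.026). Of 8 NRF2 targets 0 were called by edgeR, with 1 at an unadjusted p under 0.05 and 1 by DESeq2. That gene was Nqo1, a quinone reductase, at -0.42 (adjusted p = 0.065). Of 12 interferon-stimulated genes 0 were called by edgeR, with 0 at an unadjusted p under 0.05 and 0 by DESeq2, and their median log2 fold change was -1.70.

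Libraries highest in Chac1 were also the highest in all 4 groups for 4 of 8 ER chaperone genes, 1 of 8 NRF2 targets and 1 of 7 cytosolic one-carbon genes, beside 15.4% of all genes tested.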
